A study of Rattus norvegicus with 14 samples.

Results

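The genes described here are 39 named genes of DNA replication and mitosis, read as a measure of proliferation in the rat lateral prostate. They were chosen by name, and the 34 that had a probe set with their symbol were followed, out of 16134 genes measured. The other 5, Ccnb2, Nek2, Birc5, Mcm4 and Rrm2, had no probe set under that symbol and were not analysed here. Of the 34, 12 encode mitotic kinases, cyclins, checkpoint proteins and factors of the anaphase-promoting complex (APC/C), 10 encode spindle, midzone and chromosome proteins, 8 act in replication and nucleotide supply, and 4 control entry into S phase or mitosis.

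RNA of whole lateral prostate came from 14 male Noble rats, a strain in which combined sex hormones lead to prostate lesions, 1 array per rat. All were 48 weeks old, and all carried implanted capsules. The groups were testosterone (30 mg) with 320 mg bisphenol A (T+highBPA, n = 3), testosterone (30 mg) with 15 mg bisphenol A (T+lowBPA, n = 3), testosterone (30 mg) with 15 mg estradiol (T+E2, n = 4) and empty capsules (control, n = 4), with treated rats implanted for 32 weeks. Bisphenol A is a plastic monomer with weak estrogenic activity. Every treated group received testosterone together with a second agent, so each difference from control holds both. In whole tissue, fewer dividing cells and less RNA per cell cannot be told apart.

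Of 5 secretory markers of the lateral and dorsal lobes, Pbsn and Msmb were high on all 14 arrays, at 12.12 to 13.07 and 12.49 to 13.20 on the log2 scale, and Sord was 7.63 to 9.51. The other 2 did not follow. Tgm4 spanned 6.84 to 10.26 on T+highBPA arrays, 7.20 to 10.07 on T+lowBPA arrays and 8.32 to 11.96 on T+E2 arrays, against 11.17 to 12.18 on controls, and Spink1 was dim on every array (4.11 to 5.42). Secretory genes of the neighbouring ventral lobe were not evenly spread: the mean of 6 of them was 8.54 to 10.11 in T+highBPA arrays, 6.67 to 6.96 in those of T+lowBPA, 6.46 to 10.05 in those of T+E2 and 5.55 to 9.97 in controls. The highest 3 arrays were T+highBPA replicate 2, T+E2 replicate 2 and control replicate 4. Of the 6 ventral lobe genes, Klk1c2 and Klk1c10 were dim (means 4.67 and 4.07) and varied little within groups (SD 0.29 and 0.11). For Sbp, Scgb1d2, Scgb2a1 and Klk1c9 the SD within groups was 1.12 to 3.05. Medians of the deposited log2 values ran from 6.38 to 6.46 over arrays. Of the 34 cell cycle genes, 10 had a mean at or below 5.35, the 25th percentile of all genes, where array signal is dim.

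Cells enter the cycle when cyclin-dependent kinases release E2F factors from the RB family, which switches on the genes of origin licensing and DNA synthesis. Genes of mitosis follow later, under the MYB-MuvB complex and FOXM1, which act through CHR elements in their promoters, often beside CCAAT boxes bound by NF-Y. In resting tissue the DREAM complex holds both classes down. The adult prostate renews slowly, and Ki-67 and PCNA are the usual stains for its dividing cells.

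Promoters are shown for 7 members that differed in how closely they moved with the rest or that changed between groups. Among members with a promoter entry, Top2a, Kif23, Ccnb1 and Mki67 moved most closely with the others. Melk and Mcm2 had the lowest correlations with the others, and Mcm2 ran the other way (-0.63). Fam83d and Kif23 changed between groups. The sequences are RefSeq's, build GRCr8, 5' to 3', from 250 bases before the start site to 50 after it. Where a gene had several entries, the first was used. For Kif23 and Mki67 this window lies inside the span of the gene, which ends 5' at 71321911 and 199952847. For Mcm2 and Fam83d the start site of the entry lies inside the gene, which ends 5' at 122918205 and 167841748. Positions are counted from the start site of the entry. Capitals mark matches, on either strand, to the CHR element (TTTGAA), the CCAAT box (CCAAT) and the E2F site (TTTNGCGC).
Top2a (chr10:84473044-84473343, - strand): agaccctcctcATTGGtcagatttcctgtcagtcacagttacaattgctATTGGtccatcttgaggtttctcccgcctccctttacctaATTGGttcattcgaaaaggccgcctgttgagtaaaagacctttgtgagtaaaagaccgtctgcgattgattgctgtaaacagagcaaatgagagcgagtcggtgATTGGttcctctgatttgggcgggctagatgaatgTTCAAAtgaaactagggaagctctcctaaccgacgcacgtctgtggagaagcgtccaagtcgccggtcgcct
Kif23 (chr8:71320535-71320834, - strand): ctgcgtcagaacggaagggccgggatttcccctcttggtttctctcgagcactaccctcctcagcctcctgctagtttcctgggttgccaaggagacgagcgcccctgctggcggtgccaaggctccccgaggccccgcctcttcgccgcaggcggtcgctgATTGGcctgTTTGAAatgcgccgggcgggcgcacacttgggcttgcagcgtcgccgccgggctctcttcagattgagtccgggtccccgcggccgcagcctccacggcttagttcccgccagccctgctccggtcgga
Ccnb1 (chr2:33655176-33655475, - strand): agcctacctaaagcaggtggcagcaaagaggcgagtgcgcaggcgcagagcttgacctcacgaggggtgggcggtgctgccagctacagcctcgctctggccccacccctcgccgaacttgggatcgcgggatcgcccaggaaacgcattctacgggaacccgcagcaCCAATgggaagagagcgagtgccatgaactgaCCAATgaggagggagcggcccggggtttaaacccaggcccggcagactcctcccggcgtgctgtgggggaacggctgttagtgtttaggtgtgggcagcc
Mki67 (chr1:199952544-199952843, - strand): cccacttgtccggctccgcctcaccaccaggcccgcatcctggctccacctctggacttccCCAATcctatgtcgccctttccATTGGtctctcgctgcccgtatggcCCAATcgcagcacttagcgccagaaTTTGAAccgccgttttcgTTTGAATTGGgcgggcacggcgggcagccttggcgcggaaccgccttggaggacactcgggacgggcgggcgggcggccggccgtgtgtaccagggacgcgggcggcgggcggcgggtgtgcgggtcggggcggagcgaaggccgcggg
Fam83d (chr3:167841542-167841841, + strand): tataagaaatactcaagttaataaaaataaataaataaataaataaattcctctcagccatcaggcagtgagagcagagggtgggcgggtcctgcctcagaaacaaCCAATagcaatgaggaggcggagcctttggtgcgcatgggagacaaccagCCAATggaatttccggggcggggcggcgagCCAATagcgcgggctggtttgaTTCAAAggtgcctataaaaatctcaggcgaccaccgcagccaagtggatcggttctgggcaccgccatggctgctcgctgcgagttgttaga
Melk (chr5:63335901-63336200, + strand): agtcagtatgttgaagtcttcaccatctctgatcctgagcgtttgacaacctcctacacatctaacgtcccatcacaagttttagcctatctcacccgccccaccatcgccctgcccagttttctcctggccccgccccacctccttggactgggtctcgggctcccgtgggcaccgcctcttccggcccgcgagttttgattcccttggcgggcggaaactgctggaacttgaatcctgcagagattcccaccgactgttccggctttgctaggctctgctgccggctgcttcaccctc
Mcm2 (chr4:122918045-122918344, - strand): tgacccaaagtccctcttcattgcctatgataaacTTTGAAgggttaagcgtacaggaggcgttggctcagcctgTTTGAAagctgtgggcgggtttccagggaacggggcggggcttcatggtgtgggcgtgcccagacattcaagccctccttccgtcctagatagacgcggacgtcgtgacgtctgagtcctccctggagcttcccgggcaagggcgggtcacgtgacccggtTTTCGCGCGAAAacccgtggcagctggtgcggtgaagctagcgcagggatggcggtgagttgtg

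Top2a, the topoisomerase that untangles chromosomes, had 4 CCAAT matches and 1 CHR match, with the CHR match at -22 to -17 from the start site. Mki67, which coats mitotic chromosomes, had 4 CCAAT and 2 CHR matches, and the second CHR match (-99 to -94) shares 1 base with a CCAAT match. Kif23, a kinesin of the spindle midzone, had a CCAAT match at -88 to -84 and a CHR match at -79 to -74. Ccnb1, the cyclin of the mitotic kinase CDK1, had 2 CCAAT matches and no CHR match in this window. Fam83d, which in human cells brings casein kinase 1 to the spindle, had 3 CCAAT matches and a CHR match at -42 to -37. Mcm2, a subunit of the replicative helicase, had 2 CHR matches, at -215 to -210 and -175 to -170 from the entry's start site. It also had 2 overlapping E2F matches between -14 and -3. Melk, a kinase of the G2/M gene group, had a match to none of the 3.

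A promoter was found for 26 of the 34 genes. Of these, 13 held a CHR match (50%), against 18.1% of all 27457 promoters in the table. A CCAAT match was present in 19 (73.1%, against 37.7%) and an E2F match in 7 (26.9%, against 1.37%). CHR and E2F matches set spindle and chromosome genes apart from replication genes, while CCAAT matches were common in both. Among spindle and chromosome genes, 7 of 9 had a CHR match, 9 of 9 a CCAAT match and 0 of 9 an E2F match. Among replication genes, 1 of 7 had a CHR match, 5 of 7 a CCAAT match and 6 of 7 an E2F match. The mitotic kinase and checkpoint genes were mixed, with 5 of 9 for CHR, 5 of 9 for CCAAT and 1 of 9 for E2F. Cdk1, the kinase that drives mitosis, was the member with all 3. A match is a run of letters, and factor binding was not measured.

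**Figure D1:**
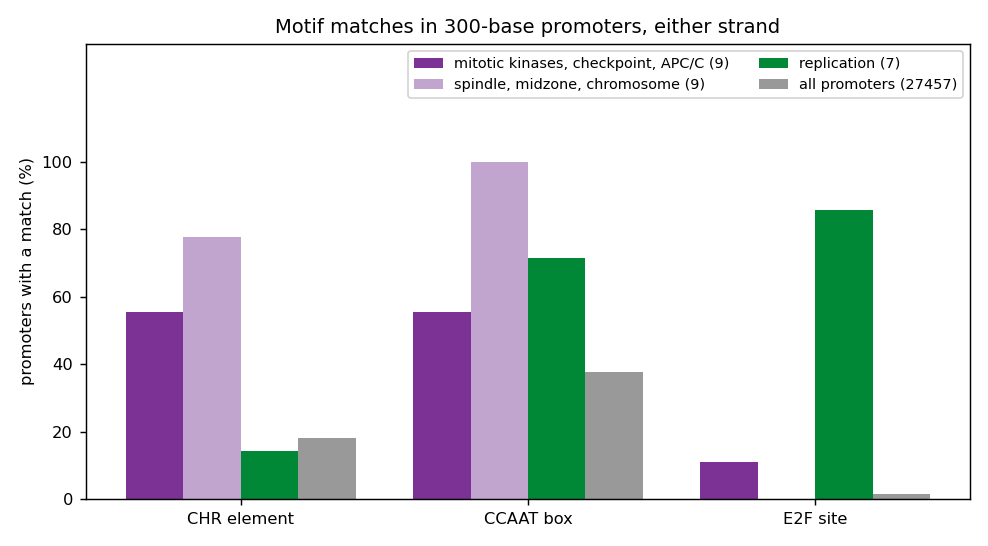
Share of 300-base promoters (percent, vertical axis) with a match to each of 3 motifs, for members by role (coloured bars, number of promoters in brackets) and for all promoters of the table (grey). CHR matches stand highest for spindle genes (77.8%) and E2F matches for replication genes (85.7%), against 18.1% and 1.37% of all promoters.

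Between T+highBPA and control, no cell cycle gene passed the test. With limma's moderated test and Benjamini-Hochberg adjustment over all genes at 0.05, 0 of the 34 were called, beside 0.0062% of all genes (1 gene). At an unadjusted p below 0.05 the members were Ttk and Fam83d, 2 of 34 (5.88%), against 8.64% of all genes. The median difference over the members was -0.06 on the log2 scale, against -0.02 over all genes. Of the 22 mitotic and spindle genes, 18 had a difference below 0, and of all genes 9015 of 16134 did. The 8 replication genes lay between -0.03 and 0.20.

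Mki67 was 6.74, 6.23 and 6.77 in T+highBPA, against 7.89, 6.89, 6.97 and 5.90 in control. The treated arrays lay inside the range of the controls, which was itself wide. The difference was -0.33 (95% interval -1.03 to 0.36, adjusted p = 0.805, limma). It was -0.01 without control replicate 1 and -0.67 without control replicate 4. Top2a was 6.66, 6.74 and 7.12 in T+highBPA, against 8.10, 7.23, 6.96 and 6.42 in control, again within the controls' range (difference -0.34, interval -0.93 to 0.26), and the difference was -0.03 and -0.59 without the same 2 controls. Pcna, the clamp that holds DNA polymerases on their template, was 8.47, 8.28 and 8.99 in T+highBPA, against 8.82, 8.48, 8.33 and 8.01 in control, with its highest array in the treated group (difference 0.17, interval -0.21 to 0.56). Thus the 3 common proliferation markers overlapped between T+highBPA and control, and their intervals leave room for a fall or a rise.

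Ttk, also named Mps1, the kinase that starts the spindle checkpoint, was 4.58, 4.72 and 4.61 in T+highBPA, against 5.21, 5.02, 4.92 and 5.50 in control. All 3 treated arrays were below all 4 controls, at dim levels (difference -0.52, SE 0.17, adjusted p = 0.444, limma). Fam83d was 8.43, 8.19 and 8.22 in T+highBPA, against 7.57, 7.85, 7.94 and 7.42 in control. Here all treated arrays were above all controls (difference 0.58, SE 0.14, adjusted p = 0.288, limma). Such separation of the arrays was seen for 3.94% of all genes on the higher side and 5.13% on the lower.

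T+lowBPA against control gave the same count of 0 members called by limma, beside 0.0186% of all genes (3 genes). At an unadjusted p below 0.05 the members were again Ttk and Fam83d, 5.88% against 7.59% of all genes. The median difference was 0.07, against 0.02 over all genes. It was -0.07 without control replicate 4. Both this comparison and the last use the same control arrays. Of the 22 mitotic and spindle genes, 16 lay above 0 and 6 below, and of all genes 55.6% lay above 0.

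Fam83d was 8.56, 8.71 and 8.52 in T+lowBPA, against 7.57, 7.85, 7.94 and 7.42 in control. Every T+lowBPA array was above every control, by 0.58 or more. The difference was 0.90 (SE 0.14, 1.87-fold), and its adjusted p of 0.0515 lay just past the threshold in limma. It was below the threshold in 11 of 24 alternatives (0.0182 to 0.0475), among them leaving out control replicate 3 or 4, and lay between 0.0182 and 0.255 over all 24. Ttk was 4.64, 5.07 and 4.61 in T+lowBPA, against 5.21, 5.02, 4.92 and 5.50 in control, where 1 T+lowBPA array reached the controls (difference -0.39, adjusted p = 0.646, limma).

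Mki67 held to a narrow band in T+lowBPA, at 7.13, 7.09 and 7.17, within the control range of 5.90 to 7.89 (difference 0.22, interval -0.48 to 0.92). Top2a was 7.25, 7.64 and 7.63 in T+lowBPA, also within its control range of 6.42 to 8.10 (difference 0.33, interval -0.26 to 0.93). The helicase subunit Mcm7 was 6.12, 6.39 and 6.41 in T+lowBPA, against 6.43, 6.68, 6.43 and 6.51 in control. All 3 arrays lay below the controls, the nearest by 0.02 (difference -0.21, adjusted p = 0.695, limma). Mcm5, of the same helicase, was also below its controls on every T+lowBPA array, at 4.95, 5.24 and 5.13, against 5.35, 5.33, 5.25 and 5.29 in control. Separation on the lower side was seen for 2 of the 34 and 2.69% of all genes, and on the higher side for Fam83d and 5.59% of all genes.

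Between T+E2 and control, 1 of the 34 cell cycle genes was called (2.94%), beside 3.23% of all genes called in either direction, 1.76% higher and 1.47% lower. The called gene was Kif23, also named MKLP1, which with RACGAP1 forms the centralspindlin complex that bundles the midzone before cytokinesis. It was 6.70, 6.59, 6.41 and 6.56 in T+E2, against 6.32, 5.88, 5.77 and 5.18 in control. The 4 treated arrays formed a tight group above all controls. The rise was 0.78 (SE 0.19, 1.72-fold, adjusted p = 0.0363, limma). The call was lost in 8 of 24 alternatives, with adjusted p up to 0.118, among them leaving out T+highBPA replicate 1 (0.0533), T+E2 replicate 1, 2 or 4 (0.0922, 0.0906 and 0.0861) or control replicate 2 or 3 (0.0736 and 0.0839).

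Tyms, thymidylate synthase, which makes the thymidine nucleotide for DNA, showed the other separation. It was 7.01, 7.17, 7.08 and 6.68 in T+E2, against 6.56, 6.47, 6.33 and 5.18 in control. All T+E2 arrays were higher, while control replicate 4 lay far below the other controls. The difference was 0.86 (SE 0.24, adjusted p = 0.0697, limma), and without control replicate 1 or 4 Tyms was called beside Kif23. Without control replicate 4 the differences were smaller, 0.54 for Tyms and 0.58 for Kif23. The separated members, 2 of 34 on the higher side and 0 on the lower, compare with 4.66% and 4.69% of all genes.

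The main proliferation markers were not called in T+E2 against control. Mki67 was 7.64, 7.45, 6.96 and 7.09 in T+E2, against 7.89, 6.89, 6.97 and 5.90 in control (difference 0.37, interval -0.27 to 1.02). Top2a was 7.49, 7.28, 7.38 and 7.18 in T+E2, against 8.10, 7.23, 6.96 and 6.42 in control (difference 0.16, interval -0.39 to 0.71). In both genes the highest and the lowest array were controls. Pcna was 8.52, 8.47, 8.37 and 8.45 in T+E2, within its control range of 8.01 to 8.82 (difference 0.04, interval -0.31 to 0.40). The kinase genes Cdk1, Aurka, Aurkb and Plk1 differed by 0.10, 0.01, 0.12 and 0.12. Prc1, which bundles midzone microtubules and binds KIF4A, differed by -0.07.

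Markers of other cell types differed in the same comparison. Smooth muscle markers had 3 of 6 called lower in T+E2 than in control (Cnn1, Actg2 and Tagln). All 6 lay below 0, with a median of -0.60, where 7726 of all 16134 genes lay below 0. Their mean was 8.72 to 9.27 on T+E2 arrays and 9.28 to 9.94 on controls. Basal epithelial markers had 2 of 8 called lower (Krt15 and Tp63), with all 8 below 0 and a median of -0.24. All 8 also lay below 0 against control in T+highBPA (median -0.30) and T+lowBPA (-0.36), with none called. Of all genes, 9015 and 7160 of 16134 lay below 0 in those 2 comparisons. The basal mean was 6.39 to 6.51 on T+E2 arrays, 6.44 to 6.70 on T+highBPA and 6.44 to 6.73 on T+lowBPA arrays. On controls it was 6.74 to 7.23. The lateral lobe gene Sord was also called lower. The mean of 8 B and plasma cell markers was 7.04 to 7.57 on T+E2 arrays, 6.63 to 6.84 on those of T+highBPA, 6.54 to 6.91 on those of T+lowBPA and 6.33 to 7.45 on controls. In T+E2 against control none of the 8 was called and 7 lay above 0, where 52.1% of all genes did. In T+lowBPA against T+E2 the plasma cell gene Jchain was called lower. The part of any of these cells in the levels of Kif23 and Tyms was not tested.

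**Figure D2:**
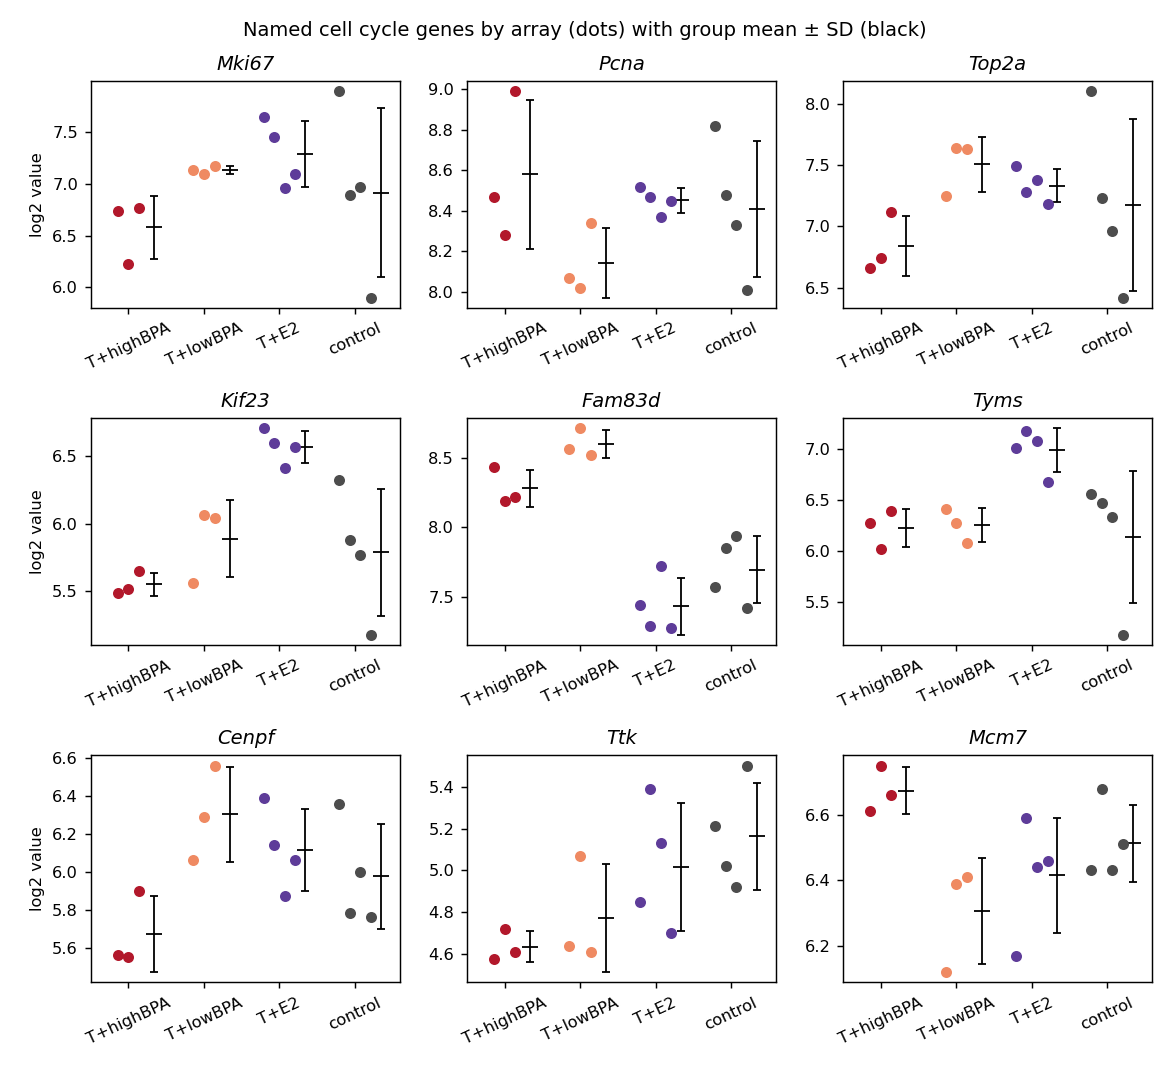
Log2 values of 9 cell cycle genes on each array (dots, in replicate order) with the group mean ± SD (black), for T+highBPA, T+lowBPA, T+E2 and control, with an axis of its own per gene. Fam83d is 8.19 to 8.71 in the bisphenol A groups, against 7.28 to 7.94 in T+E2 and control, Kif23 is 6.41 to 6.70 in T+E2, and the controls span 5.90 to 7.89 for Mki67.

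T+highBPA against T+E2 was the comparison with the most genes called, 10.2% of all genes (6.48% higher and 3.68% lower), and it held 2 of the 34 members (5.88%). Kif23 fell and Fam83d rose. Kif23 was 5.49, 5.52 and 5.65 in T+highBPA, against 6.70, 6.59, 6.41 and 6.56 in T+E2, with a gap of 0.76 between the groups. The difference was -1.01 (SE 0.20, adjusted p = 0.00688, limma), which is 0.496 of the T+E2 level. Fam83d was 8.43, 8.19 and 8.22 in T+highBPA, against 7.44, 7.29, 7.72 and 7.28 in T+E2, again without overlap. The difference was 0.84 (SE 0.14, 1.80-fold, adjusted p = 0.00194, limma). Both calls held in all 24 alternatives.

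At an unadjusted p below 0.05, 9 of the 34 (26.5%) differed here, against 27.4% of all genes. Arrays did not overlap for 2 members on the higher side, Fam83d and Mcm7, and for 4 on the lower side, Mki67, Top2a, Kif23 and Tyms, where 12.6% and 14.1% of all genes did so. Mki67 was lower by 0.71 in T+highBPA (interval -1.41 to -0.01, adjusted p = 0.177, limma) and Top2a by 0.49 (interval -1.09 to 0.10, adjusted p = 0.266). Tyms was 6.27, 6.02 and 6.39 in T+highBPA, all under the lowest T+E2 array at 6.68 (difference -0.76, adjusted p = 0.0758, limma). With the replicate number as a block, 5 members were called in place of 2, adding Aurkb, Mki67 and Tyms on the lower side, and without control replicate 4 there were 4. The median over the 34 was -0.13, against -0.05 over all genes.

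T+lowBPA against T+E2 gave 1 member called (2.94%), beside 3.53% of all genes (1.78% higher and 1.75% lower). Fam83d was 8.56, 8.71 and 8.52 in T+lowBPA, against 7.44, 7.29, 7.72 and 7.28 in T+E2. The lowest T+lowBPA array stood 0.80 above the highest T+E2 array. The difference of 1.16 (SE 0.14, 2.24-fold, adjusted p = 0.000182, limma) was the largest of any member in any pair of groups, and it held in all 24 alternatives. Kif23 was 5.56, 6.06 and 6.04 in T+lowBPA, against 6.70, 6.59, 6.41 and 6.56 in T+E2 (difference -0.68, adjusted p = 0.0921, limma). Tyms was 6.41, 6.27 and 6.08 in T+lowBPA, against 7.01, 7.17, 7.08 and 6.68 in T+E2 (difference -0.73, adjusted p = 0.175). For both genes all T+lowBPA arrays were below all T+E2 arrays, and both were called without control replicate 4. The controls enter this comparison only through the spread, which the fit shares over all groups. The members' median SD was 0.25 in control, against 0.11 to 0.18 in the treated groups. Without control replicate 1, Kif23 was called and Tyms was not. Separated members were 2 of 34 on the higher side, Fam83d and the spindle motor gene Kif11, and 3 on the lower, Kif23, Tyms and Pcna, where 9.12% and 6.82% of all genes were separated.

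Over all 4 groups, the moderated F test called 2 of the 34 members, Fam83d (adjusted p = 0.000402) and Kif23 (0.0261), beside 5.19% of all genes. The 2 did not share a pattern. Fam83d was highest in T+lowBPA, then T+highBPA, at 8.60 ± 0.10 and 8.28 ± 0.13 (SD, n = 3 each), with T+E2 at 7.43 ± 0.21 and control at 7.70 ± 0.24 (SD, n = 4 each). T+E2 and control overlapped for it. Kif23 was highest in T+E2 at 6.57 ± 0.12, with T+highBPA at 5.55 ± 0.09, T+lowBPA at 5.88 ± 0.28 and control at 5.79 ± 0.47, and these 3 overlapped. In the mean of the 3 treated groups minus control, limma called 0 members beside 0.0372% of all genes (0.031% higher), with 2 members, Fam83d (0.41) and Ttk (-0.35), at an unadjusted p below 0.05.

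**Figure D3:**
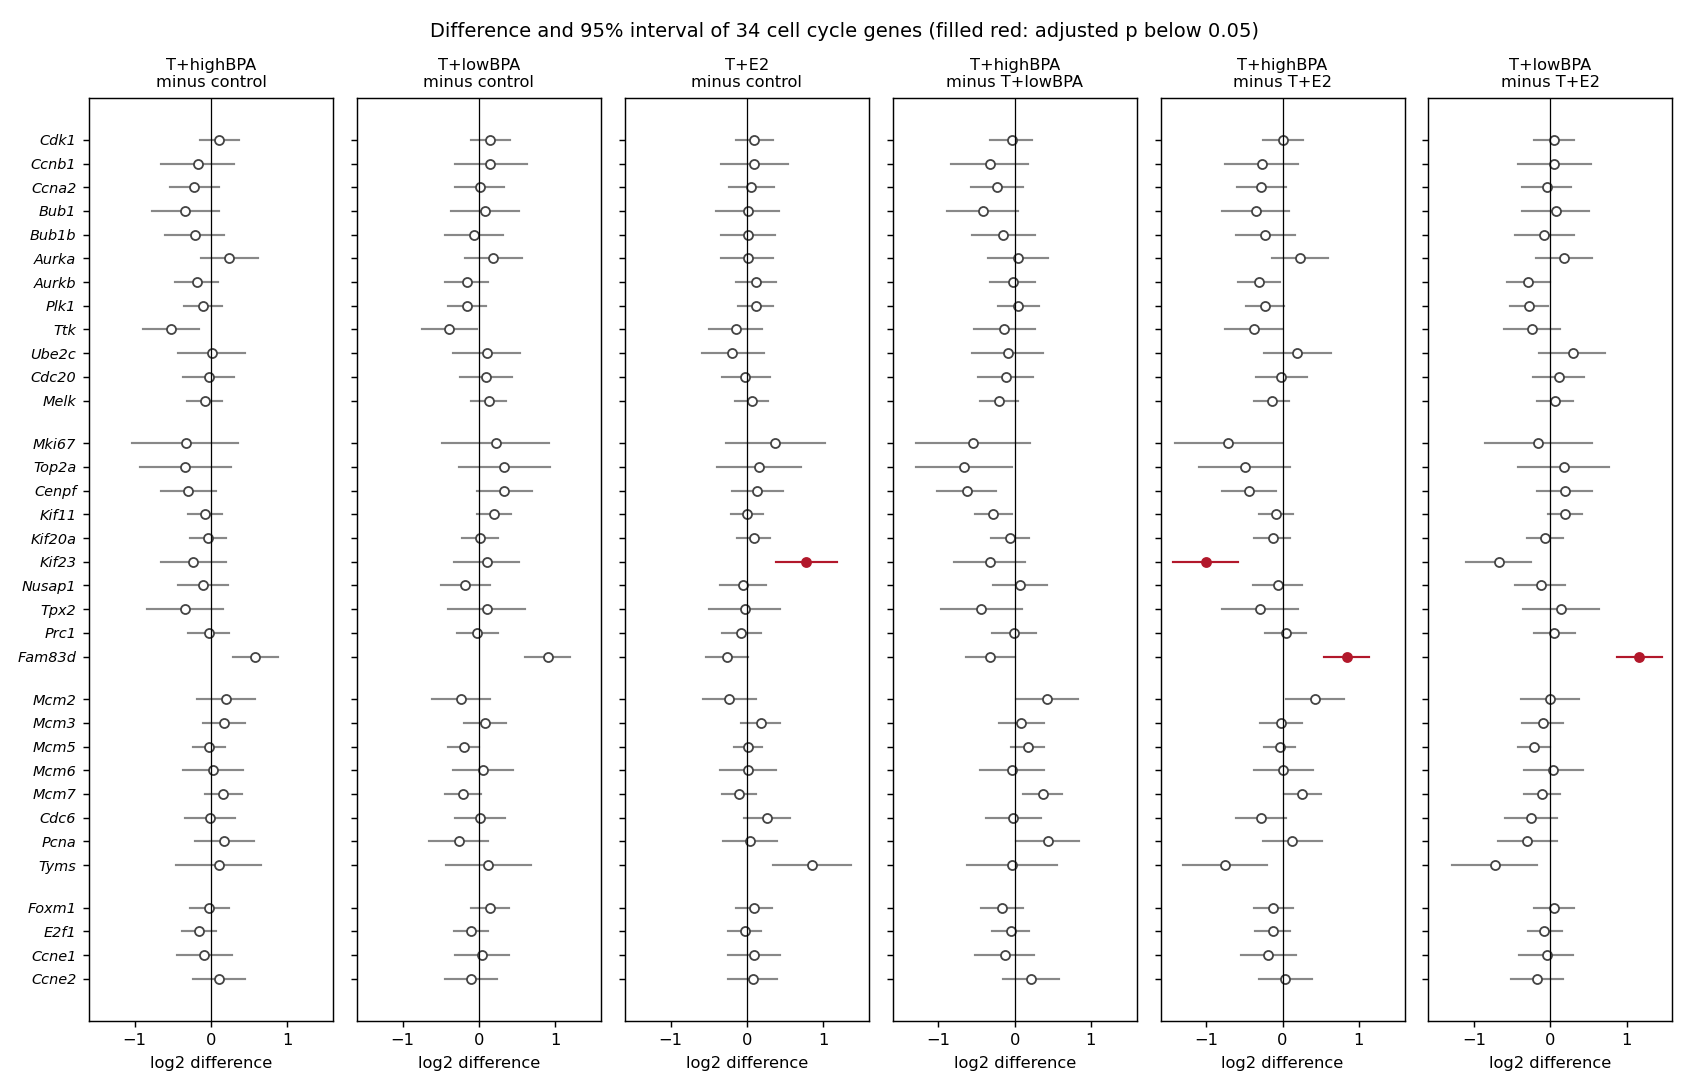
Difference between group means (log2, horizontal axis) with its 95% interval for the 34 cell cycle genes, by role, in each of the 6 pairs of groups. Called differences are filled red: Kif23 in T+E2 minus control (0.78), Kif23 (-1.01) and Fam83d (0.84) in T+highBPA minus T+E2, and Fam83d in T+lowBPA minus T+E2 (1.16).

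The 2 doses of bisphenol A were set against each other at the same testosterone dose. No member was called, and neither was any gene (0.00%). At an unadjusted p below 0.05 there were 7 members (20.6%), against 14% of all genes. Of these 7, Top2a, Cenpf, Kif11 and Fam83d, all of the spindle and chromosome group, were lower in T+highBPA. Mcm2, Mcm7 and Pcna, all of the replication group, were higher. None of the 12 mitotic kinase and checkpoint genes was among the 7. Of the 22 mitotic and spindle genes, 19 lay below 0, and of all genes 9726 of 16134 did. Of the 8 replication genes, 5 lay above 0.

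Cenpf, a kinetochore protein that peaks in G2 and mitosis, was 5.56, 5.55 and 5.90 in T+highBPA, against 6.06, 6.29 and 6.56 in T+lowBPA, without overlap (difference -0.63, SE 0.18, adjusted p = 0.255, limma). Top2a was 6.66, 6.74 and 7.12 in T+highBPA, against 7.25, 7.64 and 7.63 in T+lowBPA, also without overlap (difference -0.67, adjusted p = 0.344, limma). Mki67 was 6.74, 6.23 and 6.77 in T+highBPA, against 7.13, 7.09 and 7.17 in T+lowBPA (difference -0.55, interval -1.30 to 0.20). On the replication side, Mcm7 was 6.61, 6.75 and 6.66 in T+highBPA, against 6.12, 6.39 and 6.41 in T+lowBPA (difference 0.37, adjusted p = 0.281, limma). Pcna was 8.47, 8.28 and 8.99 in T+highBPA, against 8.07, 8.02 and 8.34 in T+lowBPA, where the groups overlapped (difference 0.44, adjusted p = 0.339). Arrays did not overlap for 7 members on the lower side and 2 on the higher, where 15.7% and 9.61% of all genes did so. The mean of the ventral lobe genes was 8.54 to 10.11 in T+highBPA and 6.67 to 6.96 in T+lowBPA, and its part in these differences was not tested.

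The other 25 members were tested in the same way and none was called in any pair. Over the 12 mitotic kinase and checkpoint genes, Ttk included, differences from control had a range of -0.52 to 0.24 in T+highBPA. For T+lowBPA the differences lay between -0.39 and 0.19, and for T+E2 between -0.19 and 0.12. Bub1, a checkpoint kinase at kinetochores, had one of the larger ones, -0.34 in T+highBPA against control (interval -0.78 to 0.10). The 4 genes of S phase and mitotic entry, Foxm1, E2f1, Ccne1 and Ccne2, lay between -0.16 and 0.14 in the 3 comparisons with control. Half-widths of the 95% intervals had a median of 0.31 to 0.36 over the members in the 6 pairs, against 0.25 to 0.29 over all genes. A change of 1 log2 unit was outside the interval for 29 to 33 of the 34 members, depending on the pair.

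Genes of the same pathway that are no members were read from 9 lists with 133 measured genes. In any of the 6 pairs, 15 of the 133 were called (11.3%), against 2 of 34 members (5.88%) and 11.3% of all genes. Kif4a, a chromokinesin that works with PRC1 at the midzone, differed most. It was 6.95, 6.60, 6.74 and 6.52 in T+E2, against 5.61, 5.42, 5.11 and 4.71 in control. The rise was 1.49 (SE 0.16, 2.81-fold, adjusted p = 0.000108, limma). In T+highBPA it was 4.73, 4.91 and 4.98, lower than T+E2 by 1.83 (adjusted p = 2.86e-05), and in T+lowBPA 5.02, 5.25 and 5.18, lower than T+E2 by 1.55 (adjusted p = 0.000124). Every T+E2 array was above all 10 others, and the 3 calls held in all 24 alternatives. Of the 17 genes in that spindle and cytokinesis list, the motor genes Kif18a and Kifc1 were called in T+highBPA against T+E2, with differences of -0.67 and 0.59 (adjusted p = 0.0329 and 0.00674, limma), calls lost in 8 and 1 of 24 alternatives, and 14 others were not called in any pair.

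Among 7 G1 cyclins and kinases, Cdk6, which phosphorylates RB in G1, was 8.31, 8.75, 8.64 and 8.69 in T+E2, against 9.06, 9.26, 8.99 and 8.92 in control. It fell by 0.46 in T+E2 (adjusted p = 0.0289, limma) and was higher in T+highBPA and T+lowBPA than in T+E2, by 0.91 and 0.86 (adjusted p = 0.000252 and 0.000452). Cdk7, of the CDK-activating kinase, rose by 0.57 in T+highBPA against T+E2. Among 6 CDK inhibitors, Cdkn1a, which encodes p21, an arrest factor under p53, was 7.64, 7.77, 8.26 and 8.47 in T+E2, against 7.33, 7.25, 7.20 and 7.42 in control. All T+E2 arrays were higher, and the rise was 0.74 (1.67-fold, adjusted p = 0.022, limma). The Cdk6 and Cdkn1a calls against control were each lost in 5 of 24 alternatives, with adjusted p up to 0.121 and 0.088.

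The remaining lists gave few calls, none against control in the bisphenol A groups. Pole2, a DNA polymerase epsilon subunit, rose by 0.53 in T+E2 against control (adjusted p = 0.0415, limma), a call lost in 14 of 23 alternatives. Of 19 replication fork genes, Rpa3, of the single-strand binding complex, rose by 0.95 in T+highBPA against T+E2 (adjusted p = 0.00641, limma), a call held in all 24 alternatives. In the same comparison 4 weaker calls were made: the clamp loader gene Rfc1 fell by 0.32 (adjusted p = 0.0371), Rb1 fell by 0.42 (0.0334), Mastl, a kinase of mitotic entry, fell by 0.46 (0.0292), and the APC/C subunit gene Anapc5 rose by 0.44 (0.0272). These were lost in 8, 7, 9 and 8 of 24 alternatives in that order, with adjusted p up to 0.116, 0.132, 0.136 and 0.0982. In T+lowBPA against T+E2, Chek1, the replication checkpoint kinase, rose by 0.65 (adjusted p = 0.0115, limma), a call lost in 1 of 24 alternatives. Orc2 of the origin complex fell by 0.52 (0.0348) and Cdc27 of the APC/C rose by 0.38 (0.0471), calls lost in 7 and 15 of 24 alternatives, with adjusted p up to 0.134 and 0.182. None of the 25 kinetochore, cohesion and condensin genes was called. The smallest F test p values among them were those of Mad2l1 and Ndc80 (adjusted p = 0.165 and 0.182).

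Within groups, most cell cycle genes moved together from rat to rat. Each gene's deviation from its group mean was set against the mean deviation of the other members over 14 arrays, as a description with no test. The Pearson correlation had a median of 0.61 over the 34, against 0.02 for all other genes set against the members' mean. Single genes among those others ran from -0.95 to 0.98, so some followed or opposed the members as closely as the members did. It was 0.91 for Top2a and Kif23, 0.90 for Ccne2, 0.87 for Ccnb1 and 0.86 for Mki67. Spindle genes had a median of 0.72 and replication genes 0.46. Mcm2 (-0.63) and Ube2c, the APC/C's ubiquitin-conjugating enzyme (-0.45), ran the other way, and Fam83d (0.05), Ttk (-0.06), Mcm7 (-0.07) and Melk (-0.08) did not follow. Of these, Melk and Ttk were dim, with means of 3.95 and 4.93, below the 25th percentile of all genes (5.35). Arrays share their normalization, and 2 controls carried much of the pattern: without control replicates 1 and 4, chosen after seeing the data, the median was 0.35. The matching value for all other genes was not worked out.

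**Figure D4:**
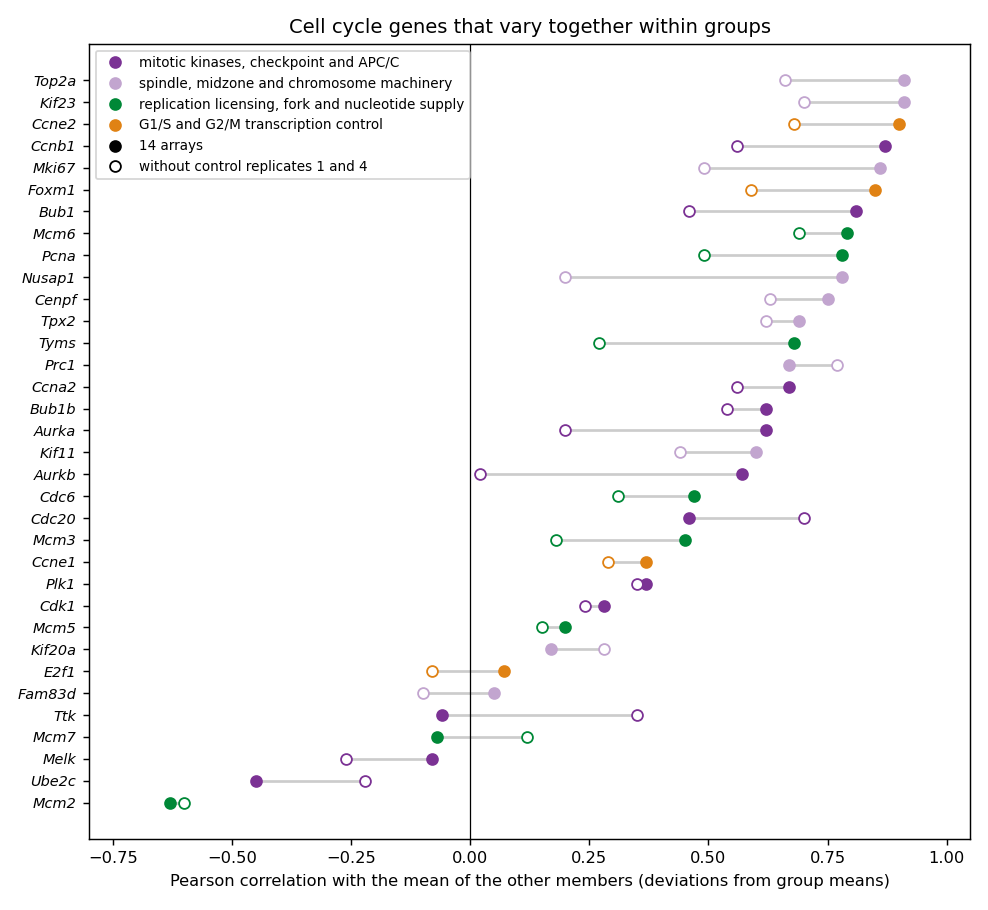
Pearson correlation (horizontal axis) of each cell cycle gene with the mean of the other members, on deviations from group means, over 14 arrays (filled) and without control replicates 1 and 4 (open), coloured by role. Top2a and Kif23 reach 0.91 over 14 arrays, Mcm2 lies at -0.63, and most points move left without the 2 controls.

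Those 2 controls were the extremes of their group. Control replicate 1 was the highest control for 24 of the 34 genes, where it was so for 26.8% of all genes. Control replicate 4 was the lowest for 22 of the 34, where it was so for 30.6% of all genes. Such arrays were not particular to the controls. T+highBPA replicate 3 was the highest of its group for 22 of the 34 (38.1% of all genes). T+lowBPA replicate 1 was the lowest of its group for 21 (33.4% of all genes). The mean of the 22 mitotic and spindle genes was 5.66, 5.61 and 5.83 in T+highBPA, 5.81, 6.02 and 5.94 in T+lowBPA, and 5.94, 5.93, 5.85 and 5.82 in T+E2, against 6.12, 5.75, 5.84 and 5.58 in control. No treated array reached beyond the control range. Control had the largest SD of the 4 groups for 17 of the 34 members (50%), against 37.2% of all genes.

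Markers of several cell types differed between the same 2 controls. The mean of 8 B and plasma cell markers was 7.45 in control replicate 1 and 6.33 in control replicate 4, that of 9 T cell markers 7.22 and 6.42, and that of 8 macrophage markers 7.95 and 6.99. Fibroblast markers (8.76 and 8.06) and endothelial markers (7.67 and 7.06) were also lower in control replicate 4. The ventral lobe mean ran the other way, at 5.91 and 9.97, as did skeletal muscle (7.76 and 9.45) and luminal epithelial markers (9.22 and 9.51). In the alternative with array weights, control replicate 4 had the lowest weight of all arrays, 0.26. The part of these cells in the spread of the cell cycle genes was not tested.

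**Figure D5:**
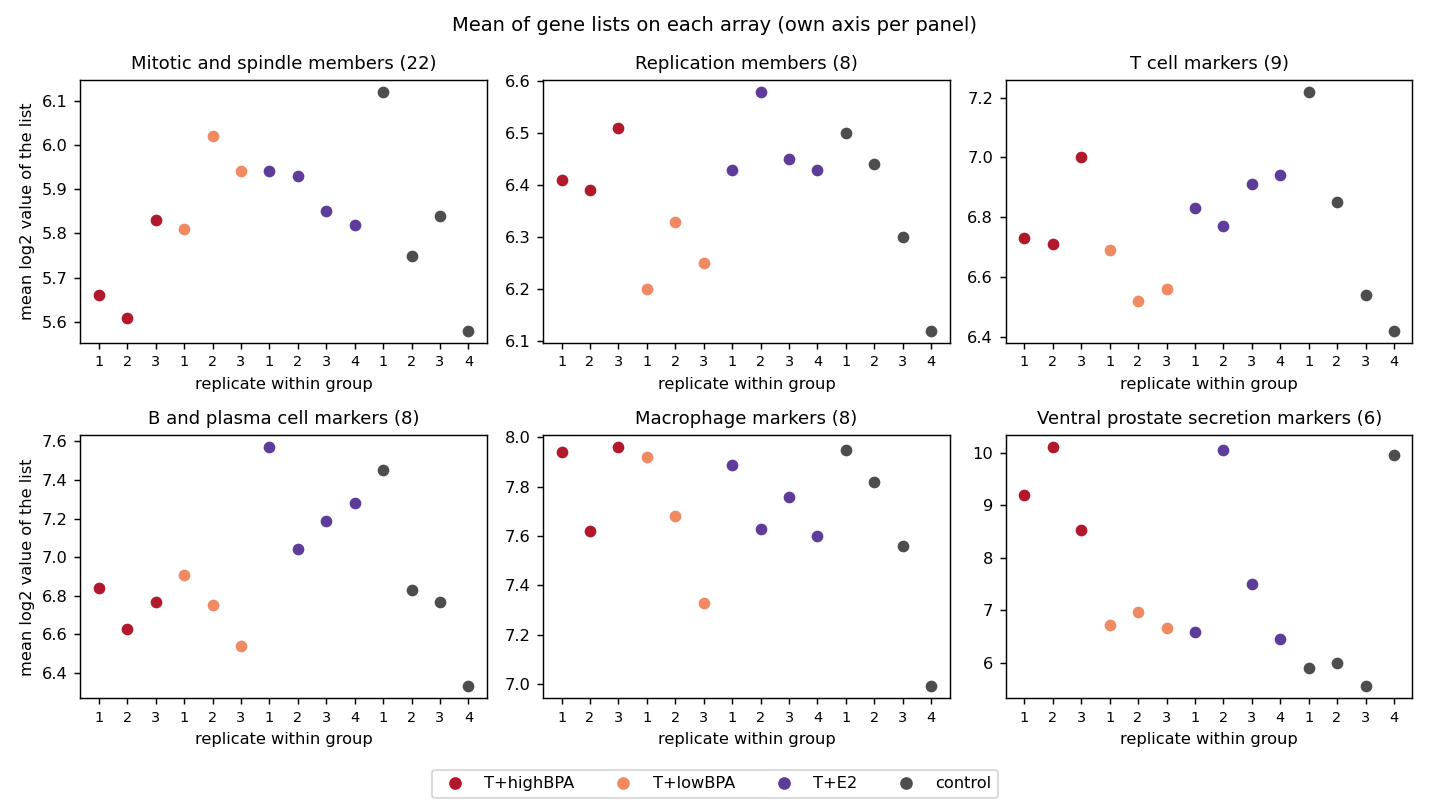
Mean log2 value of a gene list on each array (dots), by group and replicate number, for mitotic and spindle members, replication members and markers of T cells, B and plasma cells, macrophages and the ventral lobe, with an axis of its own per panel. Control replicate 1 is highest (6.12) and control replicate 4 lowest (5.58) for the mitotic and spindle members.

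The 10 non-members whose deviations were most like the mean of the mitotic and spindle genes over 14 arrays had correlations of 0.91 to 0.96. Ndc80, a kinetochore protein (0.96), Knstrn, a spindle protein (0.91), Prr11 (0.91) and Ezh2, the histone methyltransferase (0.91), were among them. So were the interferon-induced Ifit2 (0.96), the MHC class I gene RT1-N3 (0.93), Casp1, the inflammatory caspase (0.93), and Calhm6 (0.92), with Aoc1 (0.96) and Ppp1r9a (0.91). Without control replicates 1 and 4 their correlations were 0.74 to 0.91. The arrays left are among those that picked these genes, so this is no separate check. Ndc80, the kinetochore gene, was 6.01, 5.45, 5.38 and 4.78 in the 4 controls, the same order at its ends as Mki67 and Top2a.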

How the data were processed

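The series holds 14 rat arrays, 1 per rat per the labels, in 4 groups. Total RNA was extracted with TRIzol and amplified before hybridization, per the labels' protocols. The authors deposited log2 values, for which the submitters' processing notes name RMA, a method of background correction, normalization between arrays and probe summary. The RMA version, probe set definition and build are not given in the sources. Of 17802 probe sets, 16134 had 1 symbol and 1668 none. Symbols were updated through the gene number in RefSeq's GRCr8 table (3127 updated, 16008 numbers matched), except where an update would have given 2 probe sets the same symbol.

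The members and lists were chosen with earlier results of these data known. The fit used R 4.3.3 and limma 3.58.1, with 1 coefficient per group over 14 arrays and a spread per gene shared by all groups. It had 10 residual and 4.13 prior degrees of freedom. Tests were two-sided and adjusted over 16134 genes. Comparisons with control share its arrays, as do those with T+E2 and with each bisphenol A group. Values in every array were given for Mki67, Pcna and Top2a, every called member, the 6 members with the smallest F test p, and the largest rise and fall in each pair. Same-numbered arrays deviated together in every pair of T+highBPA with T+E2 (r = 0.139 to 0.435) and with T+lowBPA (0.102 to 0.255). Differently numbered arrays reached 0.644, for control replicate 4 with T+highBPA replicate 2, both among the 3 arrays highest in ventral lobe genes. The labels do not say what a number marks, so pairing was not established. The main fit had no replicate block, and the block was run as an alternative. The fit was tested on simulated data. Alternatives were a dim gene filter, all probe sets, cyclic loess, median centring, only the compared groups, an intensity trend with robust fit, array weights, the replicate block, each array left out, and, after seeing the data, quantile normalization and omission of the 3 arrays highest in ventral lobe genes. Arrays carry no read depth, and their number limits the precision. The array's build is unknown, and printed coordinates are those of the RefSeq promoters.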

Additional observations from a re-analysis of the deposited data

Results flagged for a closer look

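Several members had an array that stood far from the others of its group, by Dixon's criterion for groups of 4. Tyms in control replicate 4 was 5.18, against 6.33 to 6.56 in the other controls, and Cdc20, the APC/C activator, was 5.31 there, against 5.46 to 5.49. In T+E2, Mcm6 was 6.50 in replicate 2 (others 6.11 to 6.15), Foxm1 was 6.52 in replicate 1 (6.25 to 6.29) and E2f1 was 4.66 in replicate 4 (4.28 to 4.33). These 5 came from 68 groups of 4 looked at, where chance gives about 1 in 20. The Cdc20 and E2f1 gaps are small in log2 units.

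The test of the difference between treatments called Fam83d at both bisphenol A doses and Kif23 at the high dose. T+highBPA minus T+E2 was -1.01 for Kif23 (adjusted p = 0.00688, limma) and 0.84 for Fam83d (0.00194). T+lowBPA minus T+E2 was 1.16 for Fam83d (0.000182), and for Kif23 it was -0.68 and not called (0.0921).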

How the results depend on the processing

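Counts of members called stayed at 0 under every alternative for T+highBPA minus control, T+highBPA minus T+lowBPA and the mean of the treated groups minus control. For T+lowBPA minus control the count of 0 became 1, Fam83d, with the dim gene filter, all probe sets, cyclic loess, median centring, the intensity trend, array weights, quantile normalization and omission of the 3 arrays highest in ventral lobe genes, and was 0 to 1 with each array left out. For T+E2 minus control the count of 1 became 3 with array weights, 0 with only the compared groups, 0 without the 3 arrays, and 0 to 2 with each array left out. For T+highBPA minus T+E2 the count of 2 became 5 with only the compared groups and was 2 to 4 with each array left out. For T+lowBPA minus T+E2 the count of 1 became 3 with array weights, with only the compared groups and without the 3 arrays, and was 1 to 3 with each array left out. The F test count of 2 became 4 with array weights and was 1 to 3 with each array left out. The median difference of T+lowBPA minus control, 0.07, was -0.07 without the 3 arrays and -0.07 to 0.11 with each array left out. The causes were not tested.

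Uncalled values of the proliferation markers turned sign in some settings. Mki67 in T+E2 minus control was -0.02 without the 3 arrays. In T+lowBPA minus control it was -0.12 without them and -0.12 to 0.54 with each array left out. Pcna in T+E2 minus control was -0.09 without the 3 arrays and -0.09 to 0.18 with each array left out, and in T+highBPA minus control -0.03 to 0.33. Top2a in T+E2 minus control was -0.08 without the 3 arrays and -0.10 to 0.46 with each array left out. The arrays whose omission turned these signs were control replicate 4 and, for Pcna in T+highBPA, replicate 3 of that group. Without changing sign, Top2a in T+lowBPA minus control was 0.08 to 0.64 and Mki67 in T+E2 minus control 0.04 to 0.70 with each array left out. Without the 3 arrays, Kif23 in T+E2 minus control lost its call (adjusted p = 0.0944, limma).

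Replicate numbers are shared between groups. Deviations of same-numbered arrays correlated at -0.464 to 0.444 (median 0.166 over 19 pairs of arrays), against a median of -0.02 over 54 differently numbered pairs, with 14 of 19 and 11 of 54 over 0.1. These values do not settle whether the numbers mark pairs, and the main fit had no replicate block. Blocking on the replicate number gave a count of 2 for T+E2 minus control, 5 for T+highBPA minus T+E2 and 2 for T+lowBPA minus T+E2. It changed no other count of members by over 1.5 times. With 3 or 4 arrays a group and 10 dim members, small differences are beyond the reach of these arrays.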
